A study of Homo sapiens with 6 samples.

Results

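The genes of major histocompatibility complex (MHC) class I antigen presentation and of its peptide loading machinery were compared between MDA-MB-231 cells with and without overexpressed LARP6. The set holds 9 genes, found by symbol among the 28675 genes of the count table: the heavy chain genes HLA-B, HLA-C, HLA-E and HLA-F, the light chain gene B2M, the peptide transporter genes TAP1 and TAP2, the tapasin gene TAPBP and the transactivator gene NLRC5. All 9 passed the low-count filter and were among the 16226 genes tested. MDA-MB-231 is a line from a triple-negative breast cancer, which lacks estrogen receptor, progesterone receptor and HER2 amplification. Of its 6 libraries, 3 came from cells labelled as a no-load control (called control) and 3 from cells labelled as LARP6 overexpression (called LARP6), and the labels name no other allele, agent or time. LARP6 belongs to the La-related proteins, which bind RNA, and the study set out to find its RNA targets in these cells. Neither the way LARP6 was introduced nor the source of each library (its own culture or a shared one) is in the labels. The p-values here therefore measure only how these libraries spread, and that spread may be technical.

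MHC class I molecules carry short peptides from inside the cell to its surface, where cytotoxic T cells and natural killer cells read them. The peptides come mostly from the proteasome, are pumped into the endoplasmic reticulum by the transporter that TAP1 and TAP2 form together, and are loaded onto a heavy chain paired with the light chain encoded by B2M, with tapasin holding the empty molecule next to the transporter. NLRC5 acts on a conserved promoter module of class I genes, and interferons and NF-kB raise the same genes. Loss of this pathway is a known way for tumour cells to escape T cells.

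The libraries held 29409101 to 33387050 counts, and LARP6 itself was at 40.7 to 44.2 CPM (a gene's counts relative to its library's total, with totals scaled by edgeR's TMM method) in the control libraries and 1995 to 2198 CPM in the LARP6 libraries, as labelled. Pairs of libraries within a group differed by a chi-square of 2.06 to 3.62 per gene, beyond sampling noise, so each counted as 1 replicate. The mesenchymal marker of the line, VIM (vimentin), was at 3112 to 3173 CPM in the controls and 3307 to 3397 CPM in the LARP6 libraries. To describe the line 11 genes were listed, among them receptor genes and the epithelial genes EPCAM and CDH1, and 9 were tested. Of the 9, 2 passed the test as higher and 0 as lower, against 2.43% and 3.6% of all genes tested. The 2 were VIM (edgeR adjusted p = 0.0166) and CAV1 (edgeR adjusted p = 0.0320). The receptor genes had 1 count of ESR1 and 26 counts of PGR over all libraries together. ERBB2 (HER2) was at 54.2 to 59.3 CPM. White blood cells also express class I genes. Of 15 leukocyte markers 6 were high enough to test, with a summed level of 21.9 to 24.1 CPM in the controls and 19.7 to 20.5 CPM in the LARP6 libraries. PTPRC, the common leukocyte antigen, was at 0.271 to 0.473 CPM and the T cell gene CD3E had 1 count in all, while 1 of the 6, CD14, passed the test as lower (edgeR adjusted p = 0.00580). The part of this difference in the results on the members was not tested.

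The members lay in known places of GRCh38 in GENCODE v29. The heavy chain genes HLA-F (29722775 to 29738528, plus strand), HLA-E (30489467 to 30494205, plus strand), HLA-C (31268749 to 31272130, minus strand) and HLA-B (31269491 to 31357188, minus strand) lie in the MHC on chromosome 6. Further along the same chromosome lie TAP2 (32821833 to 32838780), TAP1 (32845209 to 32853978) and TAPBP (33299694 to 33314387), all on the minus strand. B2M is on chromosome 15 (44711487 to 44718877) and NLRC5 on chromosome 16 (56989485 to 57083531), both on the plus strand. The heavy chain genes are relatives of one another and are highly polymorphic, so how many of the reads of this line are assigned to each gene can depend on its alleles, which were not analysed here. In GENCODE v29, 0 of the 1720 different 150-base stretches of HLA-B protein-coding transcripts occurred in transcripts of another gene, and likewise 0 of 1786 for HLA-C, 0 of 2452 for HLA-E and 0 of 3602 for HLA-F. Stretches of 150 bases are as long as 1 read of a pair. For TAP2, 31% of such stretches were also in transcripts of AL669918.1, an overlapping gene on the same strand. The annotated span of HLA-B in that release runs over most of HLA-C. TAP1 overlaps PSMB9 and PSMB8-AS1 on the other strand, and HLA-F overlaps its antisense gene HLA-F-AS1, which had 59 to 71 counts a library. Neither the authors' rule for reads in overlaps nor their strand setting is known from the sources used here, so counts of these genes may include reads of their neighbours.

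The promoters are shown because NLRC5 and its partners, interferon factors and NF-kB act through short elements upstream of these genes. RefSeq's table of promoters (GRCh38.p14) held 7 of the 9 members, and HLA-E and NLRC5 were without an entry. In the 250 bases before each start site, 4 sets of letters were searched on both strands: GGG, 2 bases of any kind, T, 2 bases of any kind and CC for an NF-kB site, AANNGAAA (N is any base) for the interferon-stimulated response element, TGACG for the X2 box and CCAAT for the Y box. They were chosen with these promoters in view. Each stretch below runs from 10 bases before the first match to 10 bases after the last one within that window, 5′ to 3′ on the gene's own strand, and capitals mark the matches, which can overlap.
HLA-B: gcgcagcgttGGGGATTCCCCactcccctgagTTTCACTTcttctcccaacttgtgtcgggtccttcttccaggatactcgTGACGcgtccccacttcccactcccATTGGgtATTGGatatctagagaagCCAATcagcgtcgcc
HLA-C: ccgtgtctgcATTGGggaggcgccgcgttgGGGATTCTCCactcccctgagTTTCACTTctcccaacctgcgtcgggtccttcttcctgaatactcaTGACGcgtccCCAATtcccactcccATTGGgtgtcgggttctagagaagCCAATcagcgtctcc
HLA-F: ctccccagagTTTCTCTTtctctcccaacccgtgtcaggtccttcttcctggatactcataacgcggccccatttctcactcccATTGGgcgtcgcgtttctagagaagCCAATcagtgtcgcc
B2M: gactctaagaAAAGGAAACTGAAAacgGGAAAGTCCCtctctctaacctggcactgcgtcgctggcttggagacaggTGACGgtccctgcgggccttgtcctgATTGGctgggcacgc
TAP1: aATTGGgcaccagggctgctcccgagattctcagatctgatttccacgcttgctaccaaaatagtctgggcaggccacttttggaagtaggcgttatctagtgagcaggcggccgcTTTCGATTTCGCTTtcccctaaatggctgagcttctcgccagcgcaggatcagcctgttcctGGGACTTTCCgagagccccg
TAP2: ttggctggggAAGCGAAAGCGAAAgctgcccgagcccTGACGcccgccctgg
TAPBP: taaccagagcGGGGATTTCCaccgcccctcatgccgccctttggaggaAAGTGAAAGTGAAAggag
They lie at chr6:31357221-31357366 (HLA-B, minus strand), chr6:31272134-31272294 (HLA-C, minus strand), chr6:29723268-29723391 (HLA-F, plus strand), chr15:44711365-44711482 (B2M, plus strand), chr6:32853757-32853954 (TAP1, minus strand), chr6:32838760-32838811 (TAP2, minus strand) and chr6:33314079-33314144 (TAPBP, minus strand). For TAP1 the first of its entries is shown, and the other had no match.

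HLA-B, HLA-C and B2M held all 4 sets of letters, which 0.202% of the 35116 promoters in the table did. The NF-kB letters were in 19.7% of those promoters, the interferon letters in 20.3%, the X2 letters in 21.2% and the Y letters in 32%. HLA-F held the interferon and Y letters only. TAP1 and TAPBP held the NF-kB and interferon letters, TAP1 also a Y match 249 bases before its start, and TAP2 held the interferon and X2 letters. The members whose RNA fell, given next, were thus among promoters with all 4 sets (HLA-B, HLA-C) and promoters with fewer (TAP1, TAPBP), and B2M had all 4 and did not pass the test. A match is only a run of letters, and binding was not measured in these data.

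**Figure D1:**
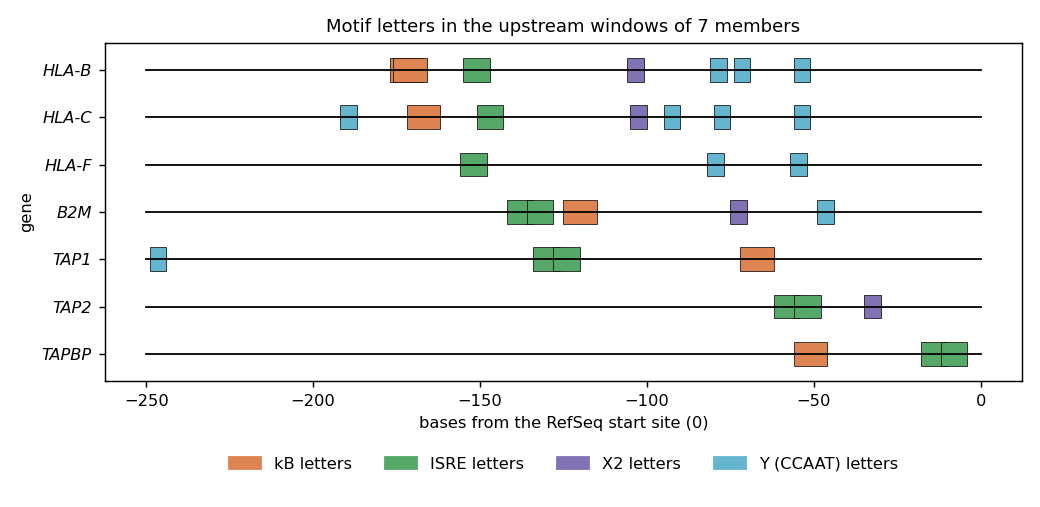
Positions of the matched letters in the 250 bases before the RefSeq start site of 7 members; the x axis gives bases from the start site, each line is 1 promoter and each coloured box 1 match of NF-kB (kB), interferon response element (ISRE), X2 or Y letters. HLA-B, HLA-C and B2M carry all 4 kinds of box, and the X2 match lies between the interferon match and the nearest Y match to the start in each of them.

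In the LARP6 libraries 4 of the 9 members fell and 0 rose. HLA-B, TAPBP, HLA-C and TAP1 were lower by 6.64% to 11.8%, while HLA-E, HLA-F, B2M, TAP2 and NLRC5 did not pass the test. In bulk libraries, less RNA in every cell and fewer cells with a high level cannot be told apart. Calls are at a Benjamini-Hochberg adjusted p below 0.05 in edgeR's quasi-likelihood test over all 16226 genes, and each adjusted p given for a gene is from that test unless another is named. Of all genes tested 3.6% were called lower and 2.43% higher (6.03% in either direction). Among the 7757 genes with a mean level at least that of NLRC5, the lowest member, 6.81% were called lower and 10.2% in either direction. Of the 9 members, 4 had every LARP6 library below every control library and 0 had every one above, against 11.7% and 10.6% of all genes tested. The median log2 change was -0.07 over the 9 members and 0.00384 over all genes, and without the threshold, at an unadjusted p below 0.05, 5 members were lower and 0 higher, where 10.3% of all genes were lower and 8.75% higher. DESeq2 and limma-voom each called 4 members lower and 0 higher. Over all genes tested, DESeq2 called 410 lower and 164 higher, and limma-voom 560 lower and 369 higher. That some class I genes were lower in these libraries was known when the set was drawn up, so the counts describe the set and are no independent support.

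**Figure D2:**
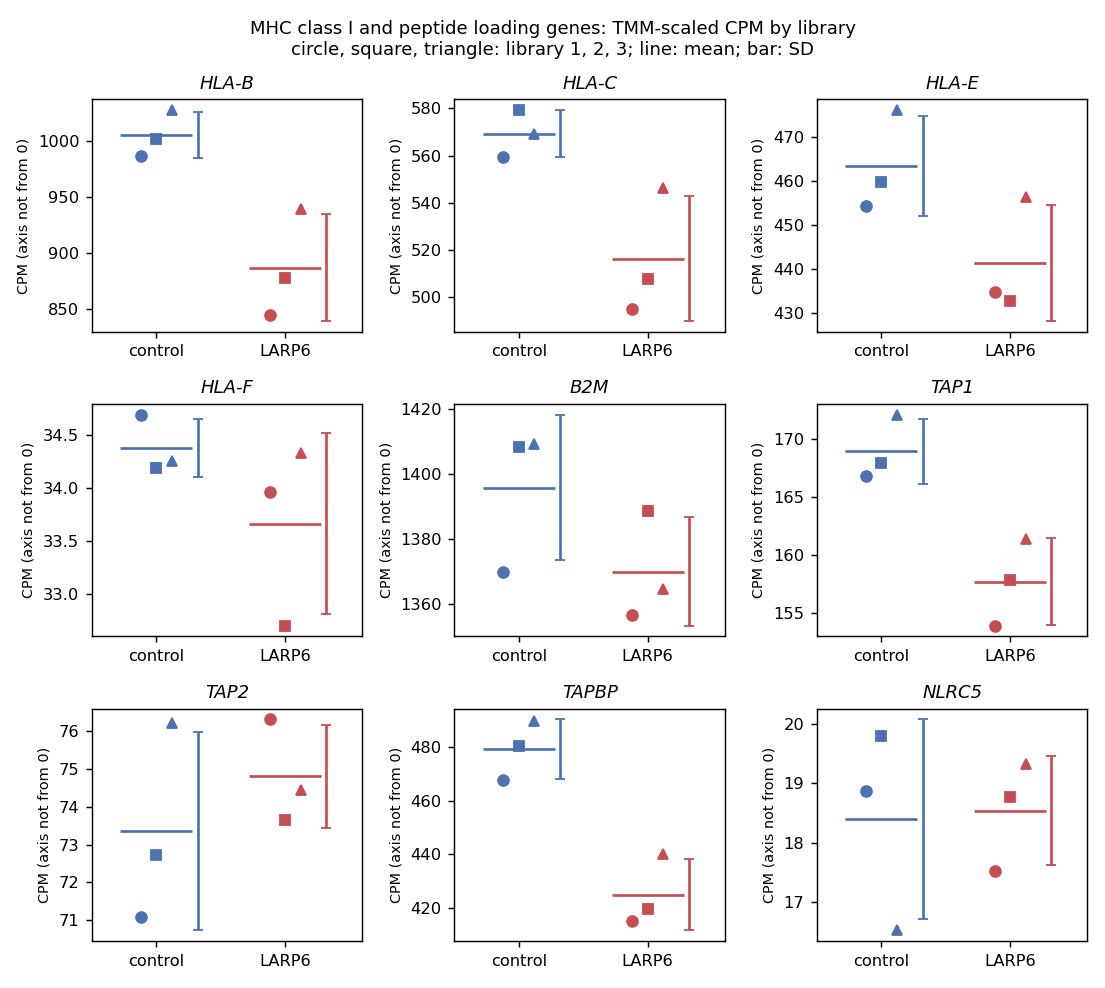
TMM-scaled CPM of each member (y axes do not start at 0) in the control and LARP6 groups; a circle, square or triangle is library 1, 2 or 3, the line is the group mean and the bar its SD (n = 3). The groups are apart in HLA-B, HLA-C, TAP1 and TAPBP and overlap in the other 5 panels.

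HLA-B, which encodes a classical heavy chain that presents peptides to CD8 T cells, was the most abundant heavy chain. It was at 986, 1002 and 1027 CPM in control libraries 1, 2 and 3, against 844, 877 and 939 CPM in LARP6 libraries 1, 2 and 3. Every LARP6 library was below every control library, and LARP6 library 3 stood nearest the controls. The log2 fold change was -0.18 ± 0.03 (SE, edgeR adjusted p = 6.44e-07), a change of -11.8%, and the gene ranked 54 by p among all genes.

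HLA-C, another classical heavy chain gene and a main ligand of killer-cell immunoglobulin-like receptors, changed by -9.27%. Its level was 559, 579 and 569 CPM in control libraries 1, 2 and 3, against 495, 508 and 546 CPM in the LARP6 libraries. The groups did not overlap, and LARP6 library 3 was again the highest of its group. The log2 fold change was -0.14 ± 0.03 (SE, edgeR adjusted p = 0.000131), and with GC and length offsets it was -0.09 (edgeR adjusted p = 0.0164).

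HLA-E, a nonclassical heavy chain that carries signal peptides of other class I molecules to NKG2 receptors, was at 454, 460 and 476 CPM in the controls, against 435, 433 and 456 CPM with LARP6. The groups overlapped, since LARP6 library 3 was above control library 1. The log2 fold change was -0.07 (95% interval -0.12 to -0.02, edgeR adjusted p = 0.0988), which did not pass the test, and the adjusted p was 0.0223 without LARP6 library 3. With GC and length offsets the change was -0.01 (edgeR adjusted p = 0.848).

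HLA-F, a nonclassical heavy chain gene with 995 to 1124 counts a library, was at 34.7, 34.2 and 34.3 CPM in the controls, against 34.0, 32.7 and 34.3 CPM with LARP6. The groups overlapped, and the 95% interval of the log2 fold change ran from -0.14 to 0.08 (edgeR adjusted p = 0.821). That interval does not reach the -0.18 of HLA-B, but a difference between the genes was not tested. With counts of the 4 heavy chain genes added and fitted as 1 feature, a choice made after seeing the data that does not depend on how reads were divided among them, the log2 fold change was -0.14 ± 0.03 (SE, edgeR adjusted p = 2.43e-05, with no GC or length correction).

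B2M, whose product is the light chain that every class I molecule needs to reach the surface, was at 1370, 1408 and 1409 CPM in the controls, against 1357, 1389 and 1365 CPM with LARP6. The groups overlapped. With 40496 to 46239 counts a library, the log2 fold change was -0.03 (95% interval -0.08 to 0.02, edgeR adjusted p = 0.610). A correction for GC content and length changed this to -0.09 (edgeR adjusted p = 0.00884), past the threshold. The median GC content of B2M transcripts was 40.5%, the lowest of the members, whose others ran from 54.1% to 64.7%, against a median of 49.9% over the genes tested.

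TAPBP, which encodes the tapasin chaperone of the loading complex, had the smallest p of the set. It was at 468, 481 and 490 CPM in control libraries 1, 2 and 3, against 415, 420 and 440 CPM in the LARP6 libraries. The groups did not overlap, and the lowest control was above the highest LARP6 library, number 3. The log2 fold change was -0.17 ± 0.03 (SE, edgeR adjusted p = 3.53e-07), a change of -11.3%, and the gene ranked 49 by p among all genes. With GC and length offsets the change was -0.115 (edgeR adjusted p = 0.000321).

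TAP1, which encodes an ATP-binding subunit of the peptide transporter, was at 167, 168 and 172 CPM in the controls, against 154, 158 and 161 CPM with LARP6. The groups did not overlap. The log2 fold change was -0.10 ± 0.03 (SE, edgeR adjusted p = 0.0334). Its call was the least secure of the 4: the adjusted p was 0.0849 when control library 2 was left out, 0.158 for control 3, 0.227 for LARP6 library 1 and 0.132 for LARP6 2, and it was 0.136 with library size only and 0.0510 with GC and length offsets.

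TAP2, which encodes the other subunit, was at 71.1, 72.7 and 76.2 CPM in the controls, against 76.3, 73.7 and 74.4 CPM with LARP6. The groups overlapped and the mean was slightly higher with LARP6, at a log2 fold change of 0.03 (95% interval -0.05 to 0.11, edgeR adjusted p = 0.767). NLRC5, which encodes the transactivator of class I genes, was the lowest member at 18.9, 19.8 and 16.5 CPM in the controls, against 17.5, 18.8 and 19.3 CPM with LARP6. The groups overlapped, with the lowest value of all in control library 3. The 95% interval of its log2 fold change was -0.13 to 0.16 (edgeR adjusted p = 0.946), so at 523 to 613 counts a library a change of the size seen in TAP1 was not detectable.

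**Figure D3:**
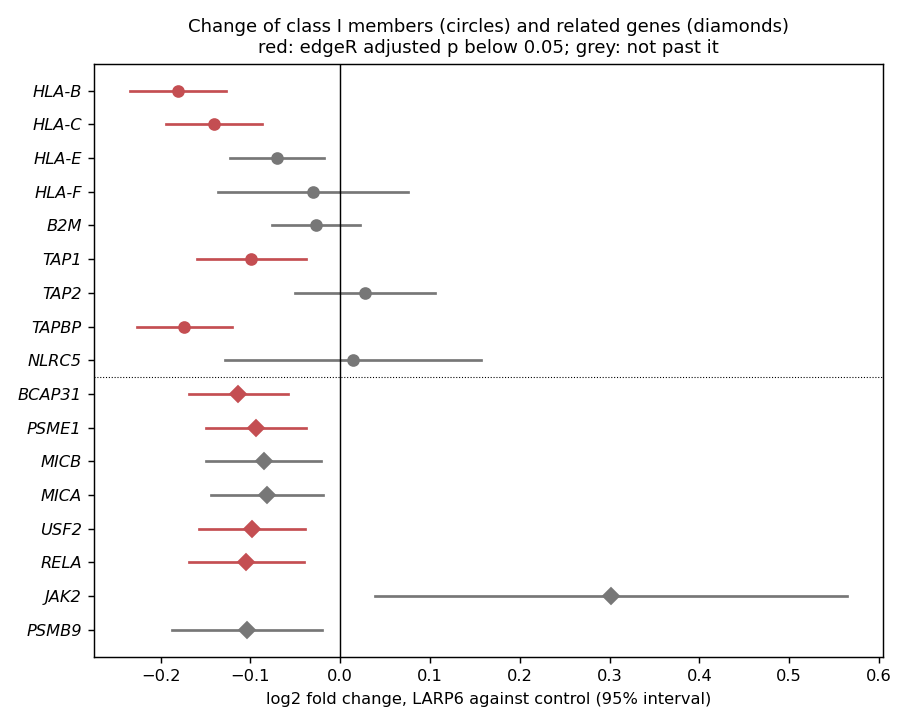
Log2 fold change of LARP6 against control libraries (x axis) with its 95% interval for the 9 members (circles) and for related genes (diamonds), red where the edgeR adjusted p was below 0.05. HLA-B, HLA-C, TAP1 and TAPBP lie to the left of 0 with intervals that exclude it, and the intervals of HLA-F, B2M, TAP2 and NLRC5 include it. That of HLA-E (-0.12 to -0.02) also excludes 0, though its edgeR adjusted p of 0.0988 did not pass. The intervals are not adjusted for the number of genes, and IFNL1, at 0.128 CPM in the controls, is not drawn.

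Levels between genes were compared on the authors' FPKM, which divides by gene length. In the controls the order of the mean FPKM was HLA-B at 292 ± 4.79 (SD, n = 3), B2M at 224 ± 2.61, HLA-C at 199 ± 2.94, HLA-E at 139 ± 2.86, TAPBP at 82.9 ± 1.54, TAP1 at 31.8 ± 0.404, TAP2 at 10.1 ± 0.316, HLA-F at 6.97 ± 0.0866 and NLRC5 at 1.30 ± 0.125. The order was the same in the LARP6 libraries, where HLA-B was at 262 ± 14.7 FPKM and NLRC5 at 1.33 ± 0.0666, and no neighbours in it overlapped in any library of either group. The place of B2M depends on the length used. Its FPKM and counts imply a length of 6175 bases, where its median transcript in GENCODE v29 has 732 bases. Per kilobase of that median length, a scale chosen after seeing the data, B2M was the highest member at 1907 CPM per kilobase in the controls, above HLA-B at 1129, and HLA-E at 510.8 passed HLA-C at 484.

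As deposited, the FPKM of the 4 heavy chain genes together was lower relative to B2M in the LARP6 libraries, but not after a correction for GC content and length. The summed heavy chain FPKM per B2M FPKM was 2.84, 2.82 and 2.86 in control libraries 1, 2 and 3, against 2.55, 2.55 and 2.77 in LARP6 libraries 1, 2 and 3. The groups did not overlap, and the mean was 2.84 ± 0.0189 in the controls and 2.62 ± 0.128 in the LARP6 libraries (SD, n = 3 each), a difference of -7.64%. A 2-sided exact permutation test of 3 against 3 gave p = 0.1 (adjusted p = 0.1 over the 2 ratios tested), the smallest it can give. With GC and length offsets taken from each gene's FPKM, a choice made after seeing these values, the ratio was 2.79, 2.78 and 2.64 in the controls, against 2.70, 2.71 and 2.77 with LARP6. The groups then overlapped, the difference was -0.31% and the exact permutation p was 0.8. The level also depends on the lengths behind FPKM, and the control mean was 1.48 when counts were used in place of FPKM.

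TAP1 was likewise lower relative to its partner TAP2. TAP1 FPKM per TAP2 FPKM was 3.22, 3.17 and 3.10 in the controls and 2.77, 2.94 and 2.98 in the LARP6 libraries. The groups did not overlap, and the means were 3.17 ± 0.0610 and 2.90 ± 0.111 (SD, n = 3 each), a difference of -8.45% at the same smallest exact permutation p of 0.1 (2-sided, adjusted p = 0.1). With GC and length offsets this difference was -8.52%, and the groups did not overlap. The share of each heavy chain in their summed FPKM was also compared. HLA-B made up 45.6% to 46.2% in the controls and 44.2% to 44.9% in the LARP6 libraries, and HLA-C 30.7% to 31.7% and 31.1% to 31.4%. HLA-E made up 21.6% to 22.0% and 22.5% to 23.4%, and HLA-F, the smallest share, 1.07% to 1.13% and 1.15% to 1.24%. The groups did not overlap for HLA-B, HLA-E and HLA-F and did for HLA-C. The shares move against one another, since they sum to a whole.

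**Figure D4:**
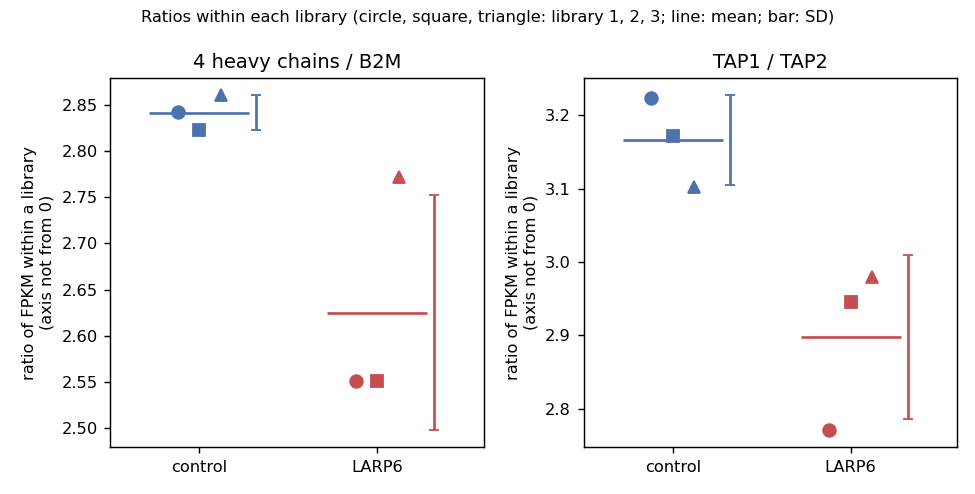
Ratios of FPKM within each library (y axes do not start at 0): on the left HLA-B, HLA-C, HLA-E and HLA-F summed over B2M, on the right TAP1 over TAP2, with a circle, square or triangle for library 1, 2 or 3, a line for the mean and a bar for the SD (n = 3). The LARP6 libraries lie below the control libraries in both panels, and LARP6 library 3 is the highest of its group in both; no GC or length correction is applied in this plot.

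Libraries within a group varied together over much of the set. LARP6 library 3 had the highest level of its group in 7 of the 9 members, the exceptions being B2M and TAP2, and control library 1 the lowest of its group in 7, the exceptions being HLA-F and NLRC5. The share of all genes with these orders is not given here, so they are not shown to be particular to the set. In log2 CPM, LARP6 library 3 was 0.08 above its group's mean in HLA-B and HLA-C and 0.05 in HLA-E and TAPBP. Without this library, HLA-B was at -0.22 and TAPBP at -0.20, and without LARP6 library 1 they were at -0.15 and -0.16 (log2 fold change, edgeR adjusted p = 0.000261 and 0.000155).

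On the authors' FPKM the same direction was seen without calls. With limma on log2(FPKM + 1), 0 of the 9 members passed, while 4 were lower and 0 higher at an unadjusted p below 0.05. The share of all genes past that unadjusted cut on FPKM is not given here, so the 4 have no background beside them. HLA-B was at -0.16 (limma adjusted p = 0.101) and TAPBP at -0.15 (limma adjusted p = 0.0650). That analysis called 105 of all genes, where edgeR on counts called 979, of which 395 were higher and 584 lower. Scaled by library size only, 687 were higher and 303 lower, and HLA-B, HLA-C and TAPBP were still called lower.

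**Figure D5:**
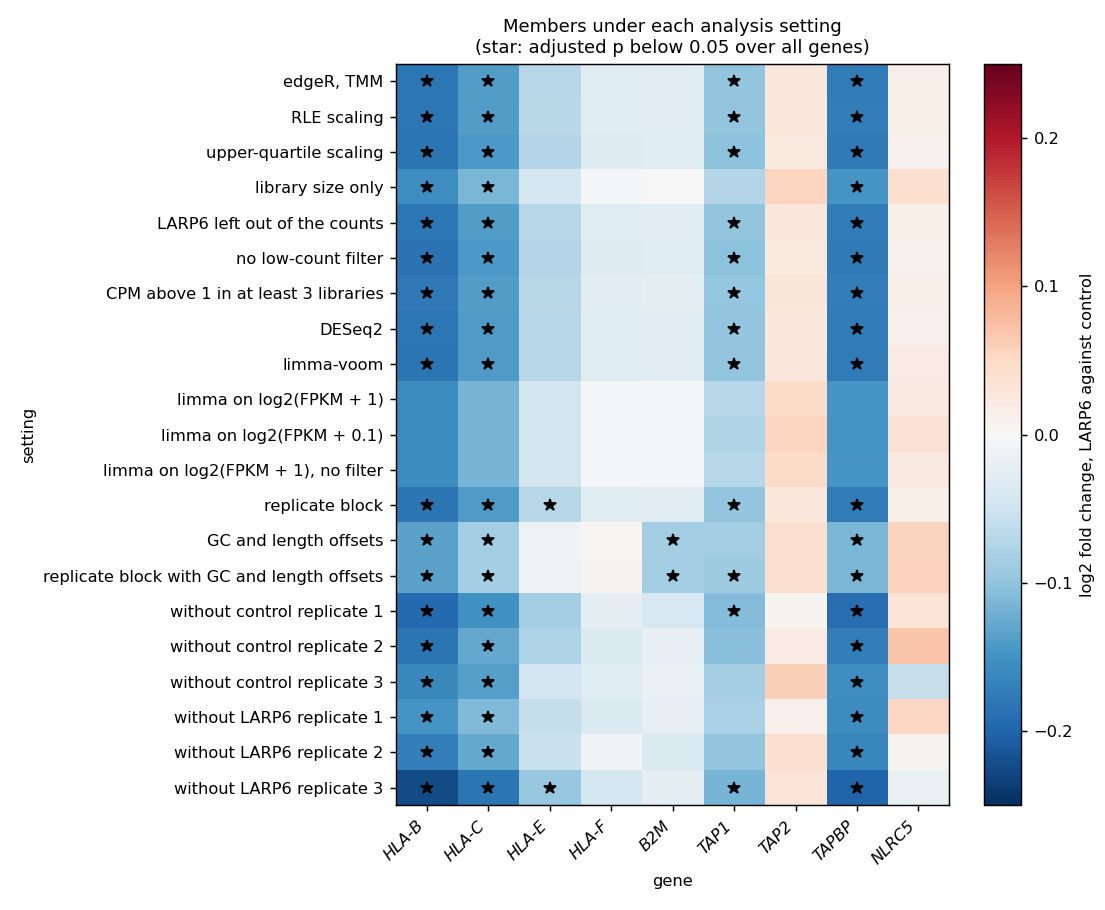
Log2 fold change of LARP6 against control (colour) for each member (columns) under each analysis setting (rows), with a star where the adjusted p over all genes was below 0.05. HLA-B, HLA-C and TAPBP carry a star in every setting except the 3 on FPKM, TAP1 loses it in several, and no member carries a star in the direction of a rise.

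Few genes of the other parts of the pathway passed the test. Of 10 loading chaperones and trimming enzymes of the endoplasmic reticulum, 1 fell and 0 rose with edgeR and with DESeq2, with a median log2 change of -0.01. Limma-voom called 2 lower, the other being CALR (-0.06, limma-voom adjusted p = 0.0374). The one that fell with edgeR was BCAP31, which encodes an export receptor of the endoplasmic reticulum known to bind class I molecules, at -0.11 ± 0.03 (log2 fold change, SE, edgeR adjusted p = 0.00413), from 276, 275 and 285 CPM to 255, 256 and 262 CPM. Its groups did not overlap, and its adjusted p was 0.0564 without LARP6 library 2. Of 9 proteasome genes (catalytic subunits of the constitutive and the immune form, and activators), 1 fell and 0 rose, with a median of -0.06 and all 9 changes negative. It was PSME1, a subunit of the activator induced by interferon, at -0.09 ± 0.03 (log2 fold change, SE, edgeR adjusted p = 0.0261), whose call was lost without control library 2 (0.105) or 3 (0.147) or LARP6 library 1 (0.227) or 2 (0.154). All genes together had a median of 0.00384, with 3.6% called lower, 2.43% called higher and 7924 of 16226 changes negative. At an unadjusted edgeR p below 0.05, 5 of the 9 proteasome genes and 3 of the 10 chaperones and enzymes were lower. In both lists 0 were higher, and of all genes 10.3% were lower and 8.75% higher. Every LARP6 library was below every control library in 5 of the 9 and 2 of the 10, against 11.7% of all genes.

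PSMB9, an immunoproteasome subunit gene, starts 488 bases from TAP1 on the other strand, at 32854192 against 32853704 on chromosome 6 in RefSeq (GRCh38.p14). It was at 63.0, 60.9 and 67.5 CPM in the controls, against 59.3, 58.0 and 60.9 CPM with LARP6. Its log2 fold change was -0.10 (95% interval -0.19 to -0.02, edgeR adjusted p = 0.134), close to that of TAP1 with a wider interval, and it did not pass the test.

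Of 15 factors that act on class I promoters, 2 fell and 0 rose, with a median log2 change of 0.01. Of all genes tested 3.6% were called lower and 2.43% higher. USF2, a factor that binds E-box sequences, was at -0.10 ± 0.03 (log2 fold change, SE, edgeR adjusted p = 0.0296), and RELA, the NF-kB subunit p65, also at -0.10 ± 0.03 (edgeR adjusted p = 0.0316). Both calls were lost with GC and length offsets (0.455 and 0.434) and with library size only (0.128 and 0.131). USF2 also lost its call without control library 1 (0.0507), 2 (0.0762) or 3 (0.124) or LARP6 library 1 (0.239). RELA lost its call without control library 1 (0.106) or 2 (0.0996) or LARP6 library 1 (0.0722), 2 (0.162) or 3 (0.0622). In the interferon and JAK-STAT list 0 of 15 passed with edgeR and 0 with DESeq2, and limma-voom called 1 higher. At an unadjusted p below 0.05, 2 of the 15 were lower and 2 higher, where 10.3% of all genes were lower and 8.75% higher. The genes of this list with the smallest p were IFNL1, an interferon lambda gene at 0.128 and 0.380 CPM in the group means (edgeR adjusted p = 0.0675), and the kinase gene JAK2, at 4.31 and 5.31 CPM (edgeR adjusted p = 0.178). DESeq2 gave no adjusted p for either. IFNL1 was the gene that limma-voom called (limma-voom adjusted p = 0.0271), at 3 to 14 counts a library.

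Among other class I and class I-like genes, 0 of 14 tested passed with edgeR, DESeq2 or limma-voom, with 2 of 14 lower and 0 higher at an unadjusted p below 0.05, a cut that 10.3% of all genes passed as lower and 8.75% as higher. These were MICB and MICA, stress-induced ligands of the NKG2D receptor of natural killer cells. MICB was at 142, 142 and 136 CPM in the controls, against 129, 135 and 132 CPM with LARP6 (log2 fold change -0.09, edgeR adjusted p = 0.0982), and it passed with GC and length offsets (-0.10, edgeR adjusted p = 0.0245). MICA was at 158, 161 and 163 CPM and at 147, 149 and 161 CPM (log2 fold change -0.08, edgeR adjusted p = 0.111), and its groups overlapped through LARP6 library 3, without which it passed (-0.12, edgeR adjusted p = 0.0126).

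The genes whose levels followed the set most closely over the 6 libraries were found by the correlation of log2 CPM with the mean of the members' standardised log2 CPM, among 10567 other protein-coding genes with a mean of at least 5 CPM. They were PSMB7 (a proteasome subunit gene, r = 0.999), KLHDC8B (r = 0.997), GTF2IRD1 (r = 0.997), SEC61A1 (a gene of the protein channel of the endoplasmic reticulum, r = 0.997) and CALR (the gene of the loading chaperone calreticulin, r = 0.997). These values rest on only 6 libraries in 2 groups. Of the 10567 genes, 150 were above 0.95, and none of the 5 passed edgeR's group test. Without LARP6 library 3, GTF2IRD1 (0.0354) and SEC61A1 (0.0448) passed it, and CALR passed with limma-voom. CALR was at 1730 ± 21.6 and 1659 ± 29.4 CPM (SD, n = 3 each). The members' own correlation with that mean was 0.979 for HLA-B and 0.977 for TAPBP, but -0.19 for TAP2 and -0.01 for NLRC5.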

How the data were processed

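RNA was sequenced from 3 control and 3 LARP6 libraries, grouped by their titles. Total RNA was made into stranded mRNA libraries read as pairs of 150 bases, per the labels' protocols. The authors deposited read counts per gene and FPKM values per gene, in which counts are divided by the length of the gene and the size of the library. The submitters' processing notes list HISAT2, DESeq2 and GRCh38 with no version. Which program counted the reads, whether by strand, and on which annotation is not given in those notes or labels.

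The deposited counts went unchanged into edgeR 4.0.16 under R 4.3.3 (filterByExpr, TMM, robust quasi-likelihood test, no covariate, Benjamini-Hochberg over all genes), and the script was tested on simulated data. The interval of a fold change uses the test's own t distribution. FPKM was tested with limma 3.58.1 on log2(FPKM + 1), which understates changes of low genes. DESeq2 1.42.0, limma-voom, other scalings and filters, a replicate block, GC and length offsets and leaving out each library were alternatives. Named genes are all members and, from each related list, up to 4 genes past the threshold or the 2 with the smallest p. PSMB9 was named as a neighbour of TAP1. The members and lists were chosen with earlier results of these data known.

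The replicate numbers were not taken to pair the libraries. Splicing and RNA binding were not analysed here.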

Additional observations from a re-analysis of the deposited data

How the results depend on the processing

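Of the 9 members, HLA-B, HLA-C and TAPBP kept their direction in all 21 alternatives and their call in 18, all but the 3 on FPKM. With GC and length offsets HLA-B was at -0.133, HLA-C at -0.0854 and TAPBP at -0.115, and HLA-E at -0.0128. On FPKM the log2 changes were, with a pseudocount of 1, -0.157 for HLA-B, -0.116 for HLA-C, -0.0722 for TAP1 and -0.147 for TAPBP, and, with 0.1, -0.157, -0.117, -0.0743 and -0.149 in the same order. With no filter on FPKM they were those of the pseudocount of 1, with limma adjusted p of 0.324, 0.423, 0.464 and 0.253, and the members called were 0 in each of the 3. TAP1 was also not called with library size only (-0.0731), with GC and length offsets (-0.0878), at an adjusted p below 0.01 (-0.099) or in 4 of the 6 fits without 1 library, in which it ran from -0.116 to -0.0819. HLA-E ran from -0.0953 to -0.0474 with a library left out and passed only without LARP6 library 3 among these. HLA-F, TAP2 and NLRC5 were called in none, and the sign of HLA-F turned with GC and length offsets and that of NLRC5 without control library 3 or LARP6 library 3.

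The check of pairing by replicate number gave a mixed result. Over 11072 genes the deviations of libraries 1, 2 and 3 from their group means correlated with those of the same-numbered library at 0.0761, 0.0420 and 0.208. Control library 2 correlated best with LARP6 library 1 (0.0697), so number 2 did not pair. Control library 3 was at -0.131 and -0.0906 with LARP6 libraries 1 and 2, so the libraries numbered 3 were alike. The cause was not tested. With the replicate block 1345 genes were called, and HLA-E passed at -0.0705 (edgeR adjusted p = 0.0189), as did MICB (0.0468), MICA (0.0476), GTF2IRD1 (0.0390), SEC61A1 (0.0303) and CALR (0.0178). B2M passed with GC and length offsets (-0.0868) and with the replicate block and these offsets together (-0.0863, an alternative added after seeing the data). The paired differences of the ratios gave an exact sign-flip p of 0.25, the smallest for 3 pairs.

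Counts of all genes moved from 979 (395 higher, 584 lower) to 574 with DESeq2 (164 higher), 687 higher and 303 lower with library size only, 237 higher with GC and length offsets and 443 (148 higher, 295 lower) at an adjusted p below 0.01. On FPKM they were 105 (46 and 59) with a pseudocount of 1, 108 (47 and 61) with 0.1 and 3 (1 and 2) unfiltered. With a library left out they ran from 456 to 1040, higher from 175 to 398 and lower from 281 to 642. For the ratios, leaving out a library gave -10.2% to -6.34% for heavy chains per B2M and -9.72% to -6.44% for TAP1 per TAP2, and GC and length offsets, added after seeing the data, gave -0.31% and -8.52%. Depth limits NLRC5 and HLA-F most, which had the fewest counts.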

Other observations

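HLA-H, a class I pseudogene on chromosome 6 (29887752 to 29890482 in GENCODE v29), differed between libraries by number rather than by group. It had 370, 369 and 947 counts in control libraries 1, 2 and 3, against 518, 445 and 1068 counts in LARP6 libraries 1, 2 and 3. Library 3 was thus 2.31-fold above the next control library and 1.94-fold above the next LARP6 library in CPM, and the groups overlapped (log2 fold change 0.29 ± 0.55, SE, edgeR adjusted p = 0.849). Of 11050 genes with at least 5 CPM in the controls, HLA-H was the 1 gene in which library 3 was at least 1.5-fold above libraries 1 and 2 in both groups, and 0 genes were as far below. It was named after its values were seen. Of its 947 stretches of 150 bases, 11% also occurred in a transcript of another class I gene, so its reads are uncertain. None of the members showed a difference of this size between libraries of a group, and the cause was not tested.

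The 7 members on chromosome 6 span an interval from HLA-F to TAPBP (29722775 to 33314387) that held 146 tested genes. Of the 139 that are not members, 19 were called lower (13.7%) and 3 higher (2.16%), with a median log2 change of -0.04. The MHC class II genes among them, known to be lower in these data, made up 8 of the 19, out of 11 tested. Of the 128 genes that are neither, 11 were lower (8.59%) and 3 higher (2.34%), with a median of -0.04, against 2.24% lower and 2.66% higher of the 713 tested genes on the rest of the chromosome. Of all genes tested 3.6% were lower and 2.43% higher, and 6.81% were lower among those with a mean level at least that of NLRC5. The genes of the interval were not matched to others by level, and their calls were not counted with GC and length offsets. Genes of 1 interval are not independent of one another, and no test was made of the difference.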
